A study of Macaca mulatta with 24 samples.

Results

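The expression of 9 genes that build the extracellular matrix and perineuronal nets of the brain (ACAN, BCAN, NCAN, VCAN, TNR, TNC, HAPLN1, HAPLN4 and PTPRZ1) was examined by RNA-Seq in the nucleus accumbens core (NAcc) of 24 rhesus macaques (Macaca mulatta). The members were taken by gene symbol, and each of the 9 symbols matched a row of its own among 17208 gene symbols. All animals were unrelated adult males, and each was measured once. The 16 drinkers had 4 months of schedule-induced polydipsia, in which timed food pellets induce drinking, followed by 12 months of open access to 4% ethanol and water in daily sessions of 22 h. By their drinking category they were labelled LD (low and binge drinkers, called LD* here, 8 animals, 0.47 to 2.07 g/kg), HD (heavy, 4 animals, 2.74 to 3.09 g/kg) or VHD (very heavy, 4 animals, 3.09 to 3.78 g/kg), and HD and VHD together form the HD* group of 8. The 8 controls went through the same procedures in the same rooms with water on both spouts and were given a 10% maltose dextrin solution to match calories. Tissue was taken without imposed abstinence as a punch of about 1 cubic mm, and a pair of older animals was in the LD* group. Drinking was voluntary, so intake was not assigned, and only males were used. The animals came from 4 cohorts, and HD* animals shared a cohort with controls only in cohort 5 (3 controls, 4 HD*) and cohort 7a (2 controls, 4 HD*, 3 LD*). Cohort 7b held 3 controls and 3 LD*, and cohort 4 held 2 LD* animals.

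Perineuronal nets are lattices of matrix around the soma and proximal dendrites of certain neurons, classically the fast-spiking parvalbumin interneurons. In a net, lecticans (the chondroitin sulfate proteoglycans aggrecan, brevican, neurocan and versican) bind hyaluronan, link proteins of the HAPLN family fasten that bond, and tenascins crosslink the lecticans at their other end. The same components, above all brevican and neurocan, also form a loose matrix around synapses throughout the brain, and much of it is made by astrocytes and by cells of the oligodendrocyte lineage.

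Values are TPM as deposited by the authors, a length-scaled share of an animal's total transcripts. How many reads stand behind a level cannot be read from these values. The dissections differed in cell content. The summed level of 12 markers of striatal projection neurons (among them PPP1R1B, DRD1 and DRD2) had a wide gap, with 12 animals between 797 and 6002 TPM and 12 between 8576 and 11858 TPM. The lower set held 4 controls, 4 LD* and all 4 VHD animals, and the upper set held 4 controls, 4 LD* and all 4 HD animals. One control, Control 6 (numbers only name the animals), had the lowest sum, 797 TPM, and the highest sums of astrocyte markers (12398 TPM), oligodendrocyte precursor markers (1159 TPM) and oligodendrocyte markers (10075 TPM). Its median correlation with the other animals over tested genes was 0.924, against 0.951 to 0.984 for the other animals. VHD 4 stood apart in scaling, with a log2 factor of -0.54 by the trimmed mean of log ratios (TMM), against -0.27 to 0.17 in the other 23 animals. It also had the lowest VCAN, TNR, HAPLN1 and PTPRZ1 of all animals. Results are therefore given with and without Control 6, VHD 4 and VHD 2 (an animal apart for HAPLN4) where it matters. In bulk tissue, fewer cells of a type and less RNA per cell cannot be told apart.

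Brevican and neurocan dominated the set, and aggrecan, a lectican used as a marker of nets, was at the low end of the table. Mean levels over the 24 animals were 258.6 ± 34.5 TPM for BCAN and 175.2 ± 42.6 TPM for NCAN (SD, n = 24). PTPRZ1, a receptor protein tyrosine phosphatase whose secreted form is the proteoglycan phosphacan, followed at 97.1 ± 21.7 TPM. The lower part of the order was HAPLN4 (25.6 ± 29.0 TPM), TNR (20.0 ± 6.17 TPM), TNC (14.2 ± 6.97 TPM), VCAN (8.84 ± 3.03 TPM), HAPLN1 (5.32 ± 1.49 TPM) and ACAN (0.899 ± 0.431 TPM). This order held between neighbours in most animals. BCAN was above NCAN in 23 of 24, NCAN above PTPRZ1 in 22, TNR above TNC in 21, TNC above VCAN in 20, VCAN above HAPLN1 in 22 and HAPLN1 above ACAN in 23. HAPLN4 was above TNR in only 11 of 24 animals, so these 2 levels could not be ranked. The 9 genes together made up 422.9 to 711.3 TPM of an animal's total.

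The members also differed in how evenly they were expressed. BCAN was the steadiest, with a coefficient of variation of 13.3% against a median of 23.6% over the 13637 tested genes (those averaging 1 TPM or more). HAPLN4, the brain link protein that pairs with brevican at inhibitory synapses, was the most variable, with a coefficient of variation of 113% and a 29.2-fold range from 5.08 TPM in VHD 3 to 148.4 TPM in Control 6. TNC, the tenascin of glia and of developing or injured tissue, ranged 10.0-fold, from 2.74 TPM in HD 3 to 27.5 TPM in Control 6. TNR, the tenascin of the adult brain and of nets, ranged 3.89-fold, from 8.27 TPM in VHD 4 to 32.1 TPM in Control 7.

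**Figure D1:**
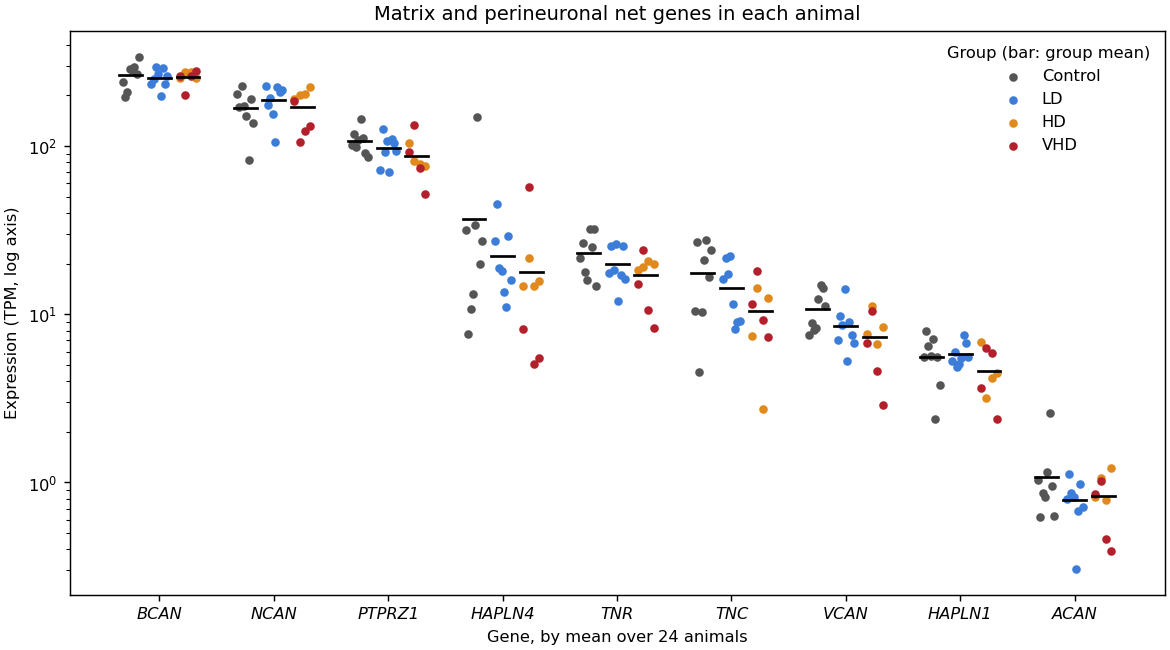
Expression (TPM, log axis) of the 9 genes in each of 24 animals, in columns for controls, LD* and HD* from left to right within a gene. Points are animals coloured by label and bars are group means. BCAN lies between 195 and 339 TPM in all animals, while HAPLN4 runs from 5.08 to 148.4 TPM, and the 3 groups overlap for every gene.

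The main question was whether these genes differed between HD* animals and controls. No member passed the test, and no gene of the transcriptome did (limma, adjusted p under 0.05 in 0% of 13637 genes, smallest adjusted p 0.706). At an unadjusted p under 0.05, 775 genes passed (5.68%), 721 lower in HD* animals (5.29%) and 54 higher. The study tested read counts with DESeq2 and did report genes below an adjusted p of 0.05 for this comparison and for HD* against LD*. The fit here used log2(TPM + 1), so its count of 0 is no statement that the groups do not differ. The source of this discrepancy was not tested. Of the 8 tested members, 7 had a log2 fold change below 0, as had 77.8% of all tested genes, and 3 (VCAN, TNR and PTPRZ1) had an unadjusted p under 0.05. That number was 0 with cohort as a covariate, 2 (VCAN and TNR) with TMM and 1 to 5 when any 1 animal was left out. It was 5 without VHD 2 and 1 (VCAN) without VHD 4. The count over all tested genes moved as well. Genes lower at an unadjusted p under 0.05 numbered 2031 without VHD 2, 274 without VHD 4 and 456 with cohort as a covariate, in place of 721. The median log2 fold change was -0.39 over the 8 members and -0.12 over all tested genes. TMM rescaling (which takes the middle of the transcriptome as constant) moved that median of all genes to about 0 and the genes with an unadjusted p under 0.05 to 199 lower and 290 higher, so signs are given relative to total RNA unless stated. In simulated data for this comparison with 200 of 13637 genes changed, 21 of 67 changes of 0.5, 59 of 67 of 1 and 64 of 66 of 2 on the log2 scale were recovered. There were 6 false calls. The simulated noise was normal and independent between genes, with no cohorts and no animal apart. The real values lack these properties, so the counts do not give the recovery to be had here.

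Among the lecticans, the abundant pair did not separate the groups. BCAN had its lowest, median and highest values in controls at 194.7, 274.9 and 338.6 TPM and in HD* animals at 201.7, 260.4 and 278.3 TPM, and its log2 fold change was -0.025 (SE 0.11, 95% interval -0.25 to 0.20). NCAN ran from 82.4 over 171.5 to 226.8 TPM in controls and from 105.7 over 187.8 to 224.2 TPM in HD* animals, a log2 fold change of 0.04 (SE 0.19, interval -0.36 to 0.44). The HD* values of both genes lay inside the range of the controls.

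Versican, which is rich in glial precursors and at nodes of Ranvier, had the smallest p of the set. VCAN ran from 7.56 over 10.1 to 15.0 TPM in controls and from 2.89 over 7.18 to 11.2 TPM in HD* animals. Thus 4 of 8 HD* animals were below every control and the groups overlapped in the remainder. Its log2 fold change was -0.54 (SE 0.21, 95% interval -0.97 to -0.11, adjusted p = 0.706 by limma over all genes), -0.43 with TMM and -0.39 (SE 0.19) without VHD 4. ACAN, with a mean below 1 TPM, was not among the tested genes. It ran from 0.624 over 0.909 to 2.60 TPM in controls and from 0.393 over 0.841 to 1.22 TPM in HD* animals. Fitted without a filter on level, ACAN had a log2 fold change of -0.16 (SE 0.13, adjusted p = 0.721 by limma over 17208 genes).

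Both tenascins had lower means in HD* animals, with overlapping groups. TNR ran from 14.7 over 23.4 to 32.1 TPM in controls and from 8.27 over 18.7 to 24.2 TPM in HD* animals, with 2 HD* animals (VHD 3 and VHD 4) below every control. The log2 fold change of TNR was -0.44 (SE 0.21, interval -0.87 to -0.015, adjusted p = 0.706 by limma). TNC ran from 4.51 over 18.9 to 27.5 TPM in controls and from 2.74 over 10.4 to 18.1 TPM in HD* animals, a log2 fold change of -0.67 (SE 0.33, interval -1.36 to 0.0083, adjusted p = 0.706 by limma). No HD* animal reached the TNC median of the controls.

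For the link proteins, the size of the HAPLN4 difference moved with 2 animals in opposite directions, and its sign did not. HAPLN4 ran from 7.68 over 23.6 to 148.4 TPM in controls and from 5.08 over 14.7 to 57.2 TPM in HD* animals, with a log2 fold change of -0.77 (SE 0.47, adjusted p = 0.706 by limma). Without Control 6 it was -0.40 (SE 0.40), and without VHD 2, the HD* animal at 57.2 TPM, it was -1.06 (SE 0.45). HAPLN1, the cartilage link protein that is also part of nets, ran from 2.39 over 5.61 to 7.90 TPM in controls and from 2.39 over 4.31 to 6.82 TPM in HD* animals. Its log2 fold change was -0.22 (SE 0.18) with all animals and -0.35 (SE 0.16) without Control 6, which had the lowest HAPLN1 of the controls. It was -0.13 (SE 0.17) without VHD 4, which had the lowest HAPLN1 of the HD* animals, and -0.12 (SE 0.17) with TMM.

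PTPRZ1 ran from 86.1 over 104.8 to 145.0 TPM in controls and from 51.7 over 80.1 to 133.9 TPM in HD* animals. Of the HD* animals, 5 of 8 lay below every control, while VHD 2 lay above 7 of the 8. The log2 fold change was -0.34 (SE 0.15, interval -0.65 to -0.026, adjusted p = 0.706 by limma) and -0.21 with TMM. Without VHD 2 it was -0.44 (SE 0.14, adjusted p = 0.238 by limma), and without VHD 4, the lowest animal, -0.24 (SE 0.14).

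**Figure D2:**
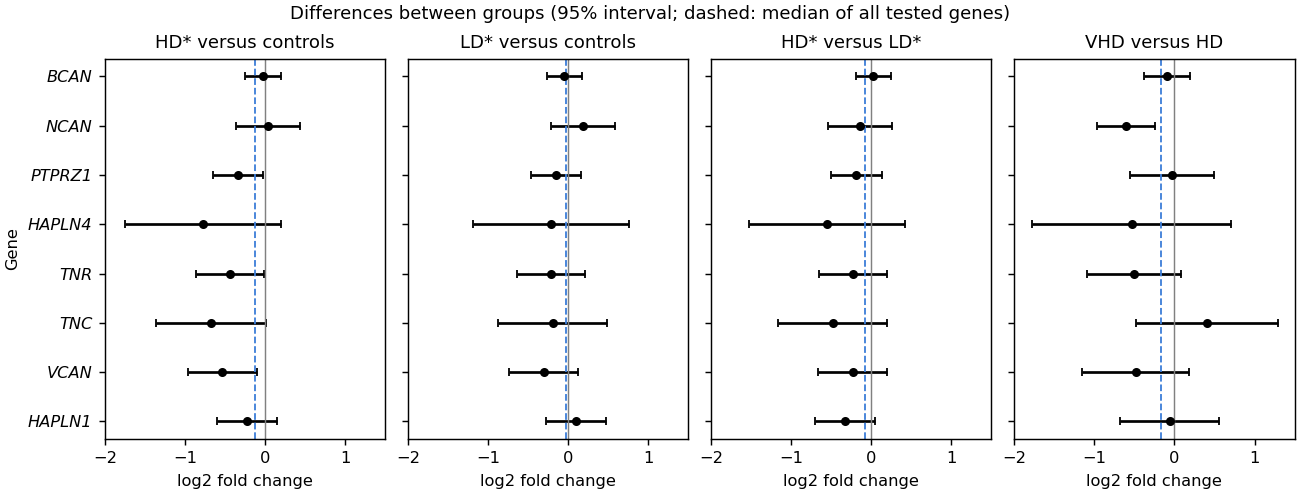
Log2 fold changes of log2(TPM + 1) for the 8 tested genes in 4 comparisons, as limma estimates (points) with 95% intervals (bars). The solid line is 0 and the dashed line the median over all 13637 tested genes (-0.12, -0.025, -0.084 and -0.17 from left to right). Only the NCAN estimate for VHD versus HD, -0.61, passed an adjusted p of 0.05.

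Low and binge drinkers were compared with controls in the same model. No member and 0% of the 13637 genes passed (limma, smallest adjusted p 1.00), with 387 genes (2.84%) at an unadjusted p under 0.05, 347 of them lower in LD* animals (2.54%), and none of them a member. Of the 8 members, 6 were below 0, against 58.1% of all tested genes. The 8 log2 fold changes ran from -0.30 for VCAN (SE 0.21) to 0.19 for NCAN (SE 0.19). VCAN ran from 5.29 over 8.05 to 14.2 TPM in LD* animals, 4 of them below every control. The sign for HAPLN4 turned from -0.22 to 0.15 without Control 6, and that for HAPLN1 from 0.10 to -0.026.

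Between HD* and LD* animals no member passed either (limma, 0% of 13637 genes, smallest adjusted p 0.937), with 147 genes (1.08%) at an unadjusted p under 0.05 and none of them a member. Of the 8 members, 7 were below 0, against 73.3% of all tested genes, and the groups overlapped for all 8 (0.00733% of tested genes had groups that did not). HAPLN1 had the smallest p of the members, running from 2.39 over 4.31 to 6.82 TPM in HD* and from 4.89 over 5.54 to 7.51 TPM in LD* animals. Of the 8 HD* animals, 5 were below every LD* animal, and the log2 fold change was -0.33 (SE 0.18, interval -0.70 to 0.049, adjusted p = 0.937 by limma). Without VHD 4 it was -0.23 (SE 0.17), and with cohort as a covariate it was -0.55 (SE 0.23, adjusted p = 0.641 by limma). With that covariate HAPLN1 was the only member at an unadjusted p under 0.05. Over all tested genes 530 were then lower and 126 higher at that level, in place of 102 and 45. The same covariate moved TNC from -0.48 to -0.12, HAPLN4 from -0.56 to -0.042 and NCAN from -0.15 to -0.40. The 3 group comparisons share animals, so their values are not independent of each other.

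The difference between HD* animals and controls was then taken within the cohorts that held both. In cohort 7a all 4 HD* animals were below the control mean for BCAN, VCAN, TNR, TNC, HAPLN4 and PTPRZ1. In cohort 5 the 4 HD* animals lay on both sides of the control mean for all 9 genes. VCAN was 7.56 to 8.90 TPM in 3 controls and 6.77 to 11.2 TPM in 4 HD* animals of cohort 5, a log2 difference of 0.10. In cohort 7a it was 11.2 and 14.3 TPM in 2 controls and 2.89 to 8.36 TPM in 4 HD* animals, a log2 difference of -1.12 (exact permutation test, two-sided p = 0.133, the smallest this design allows). TNC differed by 0.13 in cohort 5 and -1.38 in cohort 7a, and HAPLN4 by 0.49 and -1.27. The difference between the 2 cohorts was -1.23 for VCAN on the log2 scale (SE 0.42). No gene passed after adjustment (limma interaction, 0% of 13637 genes, adjusted p = 1.00 for VCAN), and 294 genes (2.16%), VCAN the only member among them, had an unadjusted p under 0.05. Neither control of cohort 7a was Control 6, and with 2 controls the cohort 7a values rest on Control 7 and Control 8.

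Differences between cohorts as such did not pass for any gene (limma F test with group in the model, 0% of 13637 genes, smallest adjusted p 0.540, 1140 genes, or 8.36%, at an unadjusted p under 0.05). The largest F among the members was that of BCAN (2.79, adjusted p = 0.540 by limma). Control levels of BCAN were 215.3 ± 23.9 TPM in cohort 5 and 288.2 ± 6.90 TPM in cohort 7b (SD, n = 3 each). NCAN followed with an F of 2.70 (adjusted p = 0.540 by limma).

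Heavy and very heavy drinkers were compared among the 8 HD* animals. NCAN was the only member that passed, in a comparison where 14.6% of the 13637 genes did (limma, adjusted p under 0.05), 1556 of them lower in VHD animals (11.4%) and 441 higher (3.23%). At an unadjusted p under 0.05, 32.7% of genes passed, 24.6% lower and 8.08% higher, and NCAN was again the only member. NCAN was 189.5, 199.8, 205.0 and 224.2 TPM in the 4 HD animals and 105.7, 122.7, 131.9 and 186.0 TPM in the 4 VHD animals. All VHD values were below all HD values, as they were in 17.9% of tested genes. The means were 204.6 ± 14.5 and 136.6 ± 34.7 TPM (SD, n = 4 each), and the log2 fold change was -0.61 (SE 0.17, adjusted p = 0.0317 by limma), against a median of -0.17 over all genes. Of the 8 members, 7 were below 0, as were 65.2% of all tested genes. With TMM the call was lost (log2 -0.39, adjusted p = 0.215 by limma), and so it was without HD 1, HD 2, HD 3, HD 4 or VHD 3 (adjusted p 0.0574 to 0.105 by limma) and without a filter on level (adjusted p = 0.0632 by limma).

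The lower NCAN of VHD animals went with lower projection neuron markers. All 12 markers of striatal projection neurons passed as lower in VHD than in HD animals (limma, log2 fold changes -0.80 to -1.61), and their sums were 3228 to 6002 TPM in VHD and 9377 to 10889 TPM in HD animals. Of the animals outside these groups, the 4 controls in the lower set of that sum had 82.4 to 169.4 TPM of NCAN and the 4 LD* animals there 105.8 to 224.7 TPM, ranges that overlap that of VHD. In the upper set NCAN was 173.5 to 226.8 TPM in 4 controls and 191.8 to 227.9 TPM in 4 LD* animals, ranges that overlap that of HD. Within the lower set the correlation of NCAN with the marker sum, both on a log scale, was 0.69 (Pearson, n = 12, and 0.42 without Control 6), and within the upper set it was 0.59 (n = 12). The part of the projection neuron content in the NCAN difference was not tested. Astrocyte marker sums were higher in VHD (6175 to 9280 TPM) than in HD animals (3458 to 5218 TPM), so the NCAN and astrocyte values moved in opposite directions.

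**Figure D3:**
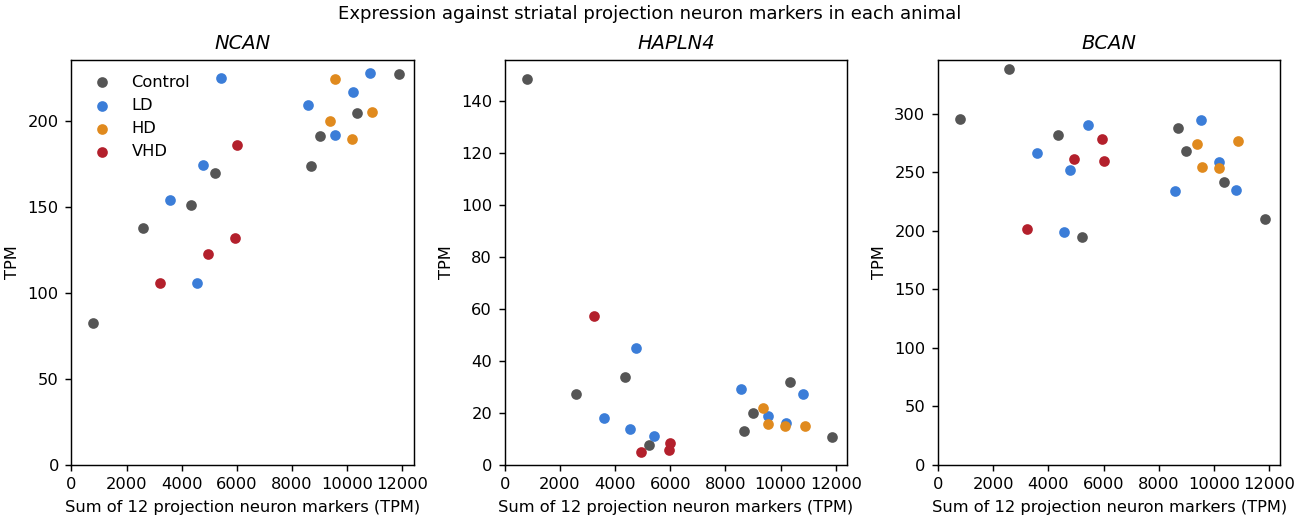
NCAN, HAPLN4 and BCAN (TPM) against the sum of 12 striatal projection neuron markers (TPM) in each of 24 animals, coloured by label. The sums leave a gap between 6002 and 8576 TPM, with VHD animals below it and HD animals above it. NCAN is 82.4 TPM in the animal with the lowest sum and between 173.5 and 227.9 TPM above the gap, HAPLN4 is highest in the 2 animals at 148.4 and 57.2 TPM below the gap, and BCAN shows no such order.

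The other members did not pass in this comparison with all 8 animals. BCAN was 264.6 ± 12.2 TPM in HD and 250.2 ± 33.4 TPM in VHD animals (SD, n = 4 each), a log2 fold change of -0.090 (SE 0.13). Each animal's ratio of BCAN to NCAN, which does not depend on scaling, was 1.14 to 1.37 in HD and 1.40 to 2.13 in VHD animals, while controls (0.924 to 3.58) and LD* animals (1.03 to 1.88) spanned values of both. VHD 2 stood apart from the other 3 VHD animals for several members. HAPLN4 was 57.2 TPM in VHD 2 and 5.08, 5.51 and 8.21 TPM in the others, while the 4 HD animals had 14.7 to 21.7 TPM. TNR was 24.2 TPM in VHD 2 and 8.27, 10.5 and 15.2 TPM in the others, against 18.4 to 20.8 TPM in HD animals. Without VHD 2, 4651 genes (34.1%) passed, among them HAPLN4 (log2 -1.29, adjusted p = 0.00299), TNR (-0.77, adjusted p = 0.0130), VCAN (-0.75, adjusted p = 0.0389) and NCAN (-0.50, adjusted p = 0.0278, all by limma). Without VHD 4, 1813 genes (13.3%) passed, NCAN the only member among them (-0.60, adjusted p = 0.0456 by limma), and HAPLN4 was -0.24 (SE 0.59), TNR -0.29 (SE 0.23) and VCAN -0.23 (SE 0.26), compared with -0.54, -0.51 and -0.49 when all 8 animals were used. VHD 2 was also the VHD animal with the lowest projection neuron sum, 3228 TPM, and the highest astrocyte sum, 9280 TPM.

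Within cohorts, with 2 VHD and 2 HD animals in each, NCAN was lower in VHD animals by 0.47 in cohort 5 and by 0.75 in cohort 7a on the log2 scale (exact permutation test, two-sided p = 0.333 in each, the smallest this design allows). TNR differed by 0.032 in cohort 5 and by -1.04 in cohort 7a, and HAPLN4 by 0.29 and -1.36. The cohort 5 values of these genes rest on VHD 2, since the other VHD animal there, VHD 1, had 15.2 TPM of TNR and 8.21 TPM of HAPLN4, below all 4 HD animals.

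Daily ethanol intake was fitted within the LD* and HD* groups, so that the slope does not repeat the group difference. All 8 tested members had a slope below 0, as had 67.5% of all tested genes, and none passed (limma, 0% of 13637 genes, smallest adjusted p 0.498, 1107 genes, or 8.12%, at an unadjusted p under 0.05). The steepest was HAPLN4, at -0.88 log2 units per g/kg (SE 0.44, adjusted p = 0.498 by limma). Among LD* animals HAPLN4 was 45.0 TPM at the lowest intake, 0.47 g/kg, 27.2 TPM at 1.24 g/kg, 11.0 to 29.1 TPM in the 5 animals from 1.43 to 1.95 g/kg, and 13.6 TPM at the highest, 2.07 g/kg. Without VHD 2 the HAPLN4 slope was -1.01 (SE 0.29, adjusted p = 0.447 by limma). TNR followed with -0.36 log2 units per g/kg (SE 0.24). The slope of BCAN was -0.050 (SE 0.12), and with TMM it turned to 0.080. The LD* animals with the lowest intakes, 0.47 and 1.24 g/kg, were the 2 animals of cohort 4, where intake and cohort cannot be told apart. With cohort in the model the HAPLN4 slope was -1.04 (SE 0.58), that of TNR -0.70 (SE 0.34), of VCAN -0.58 (SE 0.36, from -0.20), of PTPRZ1 -0.49 (SE 0.24, from -0.14), of HAPLN1 -0.38 (SE 0.30, from -0.11) and of NCAN -0.31 (SE 0.31, from -0.20). BCAN moved from -0.050 to -0.17 (SE 0.18), TNC turned to 0.18 (SE 0.45), and no gene passed (limma, smallest adjusted p 0.356).

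**Figure D4:**
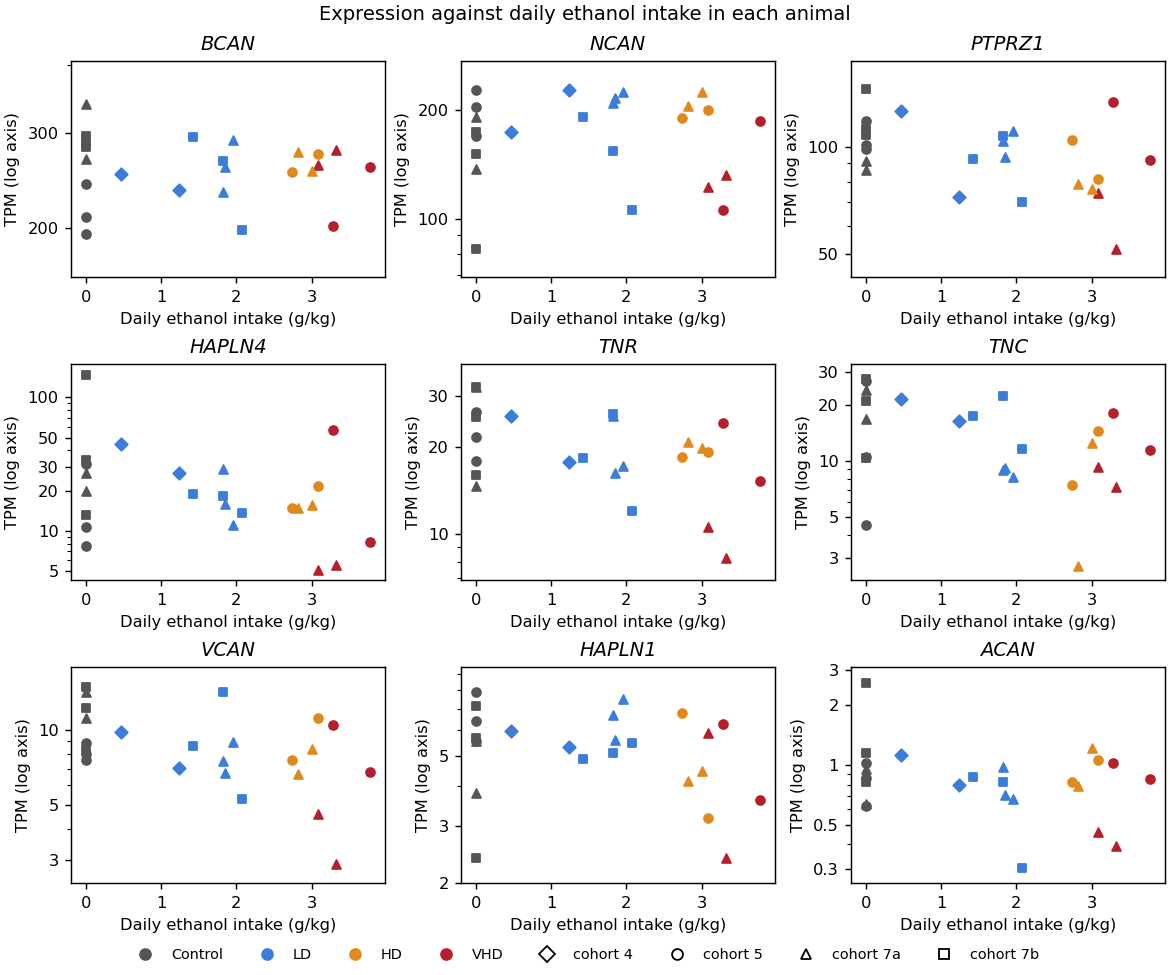
Expression (TPM, log axis) of each gene against daily ethanol intake (g/kg) in 24 animals, with controls at 0, colours for labels and symbols for cohorts. HAPLN4 is 45.0 TPM at 0.47 g/kg and 13.6 TPM at 2.07 g/kg among LD* animals, while VHD 2 stands out at 57.2 TPM. The NCAN values of VHD animals, 105.7 to 186.0 TPM, lie below those of HD animals.

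The members did not vary as 1 unit across animals. For reference, the correlation of log2(TPM + 1) over 24 animals had a median of 0.18 over all pairs of tested genes, with 90% of pairs between -0.57 and 0.78. A block of VCAN, TNR and PTPRZ1 varied together, with a Pearson r of 0.81 for VCAN and TNR, 0.75 for TNR and PTPRZ1 and 0.68 for VCAN and PTPRZ1 (n = 24). When any 1 animal was left out, these 3 correlations ran from 0.73 to 0.87, from 0.64 to 0.81 and from 0.53 to 0.73. In the lower set of projection neuron markers they were 0.87, 0.95 and 0.83 (n = 12), and in the upper set 0.58, 0.010 and -0.022 (n = 12). The lower set holds VHD 4, which had the lowest VCAN, TNR and PTPRZ1 of all animals and a TMM log2 factor of -0.54. The part of VHD 4 in the correlations of the lower set was not tested. ACAN and HAPLN4 correlated at 0.80, and at 0.65 without Control 6, which held the highest value of both (2.60 and 148.4 TPM). The correlation of these 2 genes was 0.85 in the lower set and 0.32 in the upper set.

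The abundant lecticans stood outside that block. NCAN had a correlation of -0.32 to 0.34 with every member other than TNC, with which it was -0.42. BCAN and HAPLN1 ran in opposite directions, with an r of -0.47, and of -0.55 to -0.40 when any 1 animal was left out. BCAN and NCAN were unrelated over 24 animals (r = 0.0020), with 0.13 in the lower and -0.71 in the upper set. Each lectican gene has a link protein gene next to it in RefSeq's gene order for T2T-MMU8v2.0, not the build behind the deposited values. The pairs of neighbours correlated at 0.096 for VCAN and HAPLN1, -0.32 for NCAN and HAPLN4, 0.058 for BCAN and HAPLN2 and 0.33 for ACAN and HAPLN3, so none was close to the upper end of the range of all pairs. Without Control 6 the first 2 were 0.32 and 0.011.

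**Figure D5:**
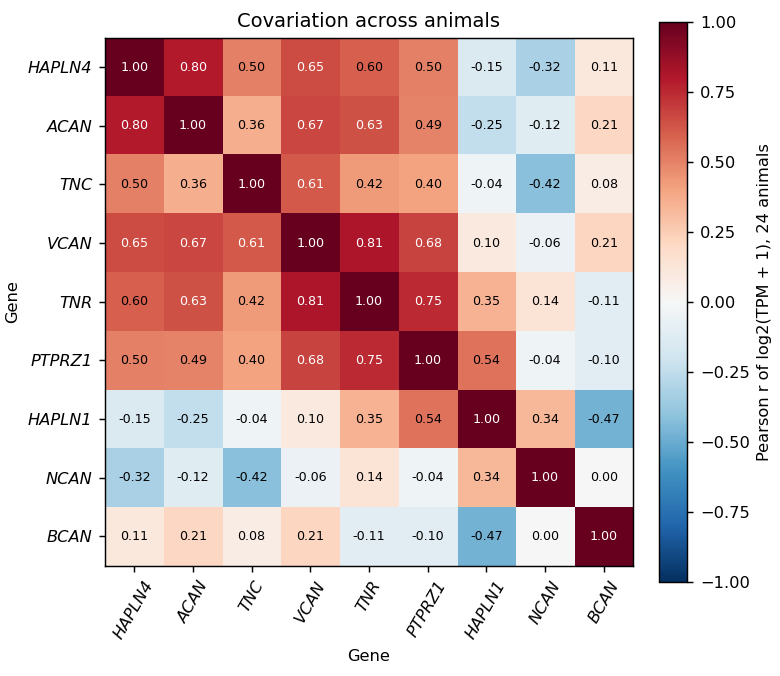
Pearson r of log2(TPM + 1) over 24 animals for each pair of the 9 genes, from -1 (blue) to 1 (red). A block from HAPLN4 to PTPRZ1 is positive, with 0.81 for VCAN and TNR and 0.80 for HAPLN4 and ACAN, and BCAN and HAPLN1 stand at -0.47.

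The members differed in the cell markers they varied with. The mean log2 level of 10 fast-spiking interneuron markers correlated with TNR at 0.90 (0.90 without Control 6), with VCAN at 0.80 and with PTPRZ1 at 0.79, against a median of 0.44 over all tested genes. This list also holds TAC1 and GAD1, which other striatal neurons express. PVALB itself was low, with a median of 1.65 TPM, and highest in Control 6 at 17.5 TPM. KCNS3, also on the list, was highest there too (6.03 TPM), yet the summed list was lowest in Control 6 (481 TPM). That sum was highest in Control 3 (1143 TPM), where PVALB was 0.508 TPM and KCNS3 0.919 TPM. The summed list therefore did not follow these markers in those animals. The correlations used the mean log2 level of the list, which these sums do not describe. Whether a member follows fast-spiking cells was not tested. The 9 oligodendrocyte precursor markers correlated with VCAN at 0.79, with ACAN at 0.78 (0.58 without Control 6) and with HAPLN4 at 0.74 (0.56 without Control 6). Their correlation was 0.70 with TNR, 0.56 with PTPRZ1, 0.52 with TNC, -0.075 with HAPLN1 and -0.41 with NCAN. The median over all tested genes was 0.29. TNC correlated with 10 astrocyte markers at 0.70, PTPRZ1 at 0.64, VCAN at 0.56, HAPLN4 at 0.47 and TNR at 0.33. HAPLN1 was at 0.066 and NCAN at -0.59 with that list, against a median of 0.13 over all tested genes. BCAN was between -0.14 and 0.12 with each of the astrocyte, oligodendrocyte precursor, oligodendrocyte and fast-spiking lists. A list of 8 cortical or claustral excitatory neuron markers summed to between 7.29 TPM (HD 3) and 920 TPM (LD 4). It correlated with TNC at 0.53, VCAN at 0.50 and TNR at 0.39, against a median of 0.090 over all tested genes. The other tested members were between 0.0031 and 0.17 with it. The part of neighbouring tissue in these values was not tested.

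Of all tested genes, the 3 most like each member over the 24 animals by Spearman rho were as follows. NCAN was followed most closely by DTNB (rho 0.92), PRKCZ (0.91) and GRM4, a metabotropic glutamate receptor (0.91). VCAN went with SCD5 (0.93), FYN (0.90) and ELOVL5 (0.90), and TNR with NCAM2 (0.91), AGTPBP1 (0.90) and the membrane-type metalloproteinase MMP16 (0.89). PTPRZ1 went with TDRD7 (0.89), CFI (0.88) and AP4M1 (0.85), and TNC with CTH (0.90), CORO1C (0.87) and the potassium channel KCNC4 (0.85). HAPLN4 went with the muscarinic receptor CHRM2 (0.88), H2AFY (0.87) and ESF1 (0.86), and ACAN with LSM12 (0.86), ZNF275 (0.86) and SLC37A4 (0.85). The closest genes were less close for HAPLN1 (ALG6 0.81, ZNF559 0.80, PIBF1 0.80) and BCAN (LTBP3 0.80, TTYH1 0.76, PSENEN 0.73).

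The 2 tenascins were also compared within each animal. The ratio of TNR to TNC ran from 0.610 over 1.53 to 3.96 in controls, from 1.04 over 1.18 to 2.84 in LD* and from 1.13 over 1.33 to 7.58 in HD* animals. The highest ratio was that of HD 3, where TNC was 2.74 TPM. Controls had a mean log2 ratio of 0.54 ± 0.83, LD* animals of 0.51 ± 0.55 and HD* animals of 0.81 ± 0.92 (SD, n = 8 each), so the spread within groups exceeded the differences between them.

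Other genes of matrix synthesis and turnover were examined in 5 lists of 77 gene symbols in all (hyaluronan turnover, other link proteins, tenascins and proteoglycans, chondroitin sulfate synthesis, matrix proteases with their inhibitors, and receptors and ligands of nets). KIAA1199 and TMEM2 were also listed under their newer symbols, CEMIP and CEMIP2. Of these symbols 74 were in the table and 66 were tested. For HD* against controls 0 of 66 passed and 0 had an unadjusted p under 0.05, and 52 of 66 were below 0 with a median log2 fold change of -0.17. NPTX2, which the study lists among the genes lower in HD* animals by DESeq2 on read counts, had a log2 fold change of 0.039 here. That value is near 0 (adjusted p = 0.964 by limma on log2(TPM + 1)) and comes from another method and scale. In each list the smallest p belonged to HYAL1, a hyaluronidase (-0.25), HAPLN3 (-0.21), CHSY1, a chondroitin synthase (-0.21), TIMP3, a metalloproteinase inhibitor held in the matrix (-0.28), and MDK, a growth factor that binds PTPRZ1 (-0.45), all 5 with an adjusted p of 0.706 by limma.

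For LD* against controls 0 of 66 passed, and 5 lower and 2 higher genes had an unadjusted p under 0.05 (10.6% of the 66, against 2.84% of all tested genes). The gene of smallest p in each list was HYAL1 (-0.33), HAPLN2, the link protein of nodes of Ranvier made by oligodendrocytes (-0.87), CSGALNACT1, which starts chondroitin chains (0.59), TIMP3 (-0.30) and the Nogo receptor relative RTN4RL2 (0.95), each with an adjusted p of 1.00 by limma. HAPLN2 was 59.8 ± 29.4 TPM in LD* animals and 124.2 ± 108.3 TPM in controls (SD, n = 8 each), where the highest value was 382.2 TPM in Control 6. Without that animal the controls had 87.3 ± 31.8 TPM (n = 7) and the log2 difference was -0.60. Oligodendrocyte marker sums had means of 3425 TPM in LD* animals and 4673 TPM in controls, and their part in the HAPLN2 difference was not tested. For HD* against LD* 0 of 66 passed and 0 had an unadjusted p under 0.05. The genes of smallest p were KIAA1199, a hyaluronan-degrading protein (-0.55), FMOD (-0.66), CSGALNACT1 (-0.44), MMP15 (0.23) and the neuronal pentraxin receptor NPTXR (-0.53), each with an adjusted p of 0.937 by limma.

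Between VHD and HD animals 11 listed genes passed as lower and 1 as higher (18.2% of the 66, against 14.6% of all tested genes). The genes named here were chosen after their values were seen. Among 20 tested genes of chondroitin sulfate synthesis 5 were lower in VHD animals, namely UST, CHST15, CHSY3, CHST11 and CHPF. UST, which adds 2-O sulfate to uronic acid, was 53.6 ± 5.02 TPM in HD and 23.6 ± 3.60 TPM in VHD animals (SD, n = 4 each, log2 fold change -1.16, adjusted p = 0.00363 by limma). SEMA3A, a secreted guidance cue that binds nets, was 15.3 ± 5.28 and 4.51 ± 0.920 TPM (-1.53, adjusted p = 0.00515 by limma). The gene that passed as higher was TIMP1, an inhibitor of metalloproteinases, at 19.9 ± 8.34 and 47.7 ± 9.15 TPM (1.32, adjusted p = 0.0178 by limma). The same animals differ in all 12 projection neuron markers, and the part of this in the listed genes was not tested.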

How the data were processed

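RNA was extracted from the NAcc core of 24 animals and polyA-selected libraries were sequenced on an Illumina instrument by the authors. Per the labels and the study's methods, reads were aligned to the MacaM assembly with STAR 2.5.2b (at most 2 mismatches, unique alignments only), counted on genes with HTSeq 0.6.1p1, and tested with DESeq2 by the authors. The sources differ on strand and pairing (unstranded single-end in the series' design text, stranded paired-end in the methods), so overlapping and antisense genes may share reads. The deposited values are TPM made by the authors (columns sum to 999998 to 1000000), although their name speaks of normalized counts. How counts became TPM, and with which gene lengths, is not given in the sources used here. The study gives an average sequencing depth only, so the depth of each animal is unknown and no count test was run.

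Values were transformed to log2(TPM + 1), where fold changes of low genes are understated. Genes averaging 1 TPM or more (13637) were fitted with limma 3.58.1 in R 4.3.3 (empirical Bayes with a trend, Benjamini-Hochberg over all tested genes, adjusted p under 0.05). One model of 3 groups gave HD*, LD* and control contrasts, VHD against HD was fitted on the 8 HD* animals, a model of the 16 drinkers with group gave the slope on intake, and cohort was fitted with group as an F test and as an interaction in cohorts 5 and 7a. P-values measure the spread between single samples of separate animals. Single values within cohorts were compared by exact permutation. Correlations carry no p. Remaining computations used pandas 2.3.3, scipy 1.17.1 and numpy 2.4.6 under Python 3.11.15, with plots from matplotlib 3.10.9. The fit was tested on simulated data.

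The members and all gene lists were chosen with earlier results of these data known. Named genes are all members, in each other list the gene of smallest p in each of 3 comparisons (HD* and LD* against controls, HD* against LD*), and the 3 genes most like each member. The oligodendrocyte precursor list and a matrix list share CSPG4. Alternatives were pseudocounts of 0.1 and 8, a filter of 10 TPM and none, TMM (M trimmed by 30% and A by 5%), cohort as a covariate, only the compared groups, and each animal left out. RefSeq (T2T-MMU8v2.0) was used for neighbouring genes and holds all 9 members. Sequences and genome positions of the members were not used here, since no genome of the files' build was at hand.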

Additional observations from a re-analysis of the deposited data

Results flagged for a closer look

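In 45 combinations of gene and group, 6 held an animal whose gap to its nearest neighbour was a large part of the group's range (Dixon's test at 95%, which chance meets in about 1 in 20 groups). In controls these were ACAN at 2.60 TPM and HAPLN4 at 148.4 TPM, both in Control 6, where the other 7 controls reached at most 1.15 and 33.8 TPM. In HD* animals these were BCAN at 201.7 TPM, the lowest of the group, and HAPLN4 at 57.2 TPM, both in VHD 2. HAPLN4 in VHD 2 stood apart in the same way among the 4 VHD animals alone. Among the 4 HD animals, HAPLN4 was 21.7 TPM in HD 2 and at most 15.7 TPM in the other 3. HAPLN4 thus accounts for 4 of the 6, with the same VHD 2 value counted in both HD* and VHD. The HD and VHD animals are also those of HD*, so the 45 combinations are not separate and the rate of 1 in 20 does not apply to their total. The values were not log-transformed. Control 6 and VHD 2 are the animals with the lowest projection neuron marker sums of their groups (797 and 3228 TPM).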

How the results depend on the processing

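The counts of genes passing in HD* against controls, LD* against controls, HD* against LD* and between cohorts were 0 under every alternative run. For the slope on intake the count was 0 to 1 when animals were left out (1 without LD 2) and 0 otherwise. For VHD against HD, 476 to 4651 genes passed when animals were left out, 1408 without a filter on level, 2580 with TMM and 2757 with cohort as a covariate, against 1997. The NCAN log2 fold change ran from -0.77 to -0.50 over the animals left out. With TMM, 2518 genes were higher and 2502 lower in VHD than in HD animals at an unadjusted p below 0.05, against 1102 and 3355, the slopes on intake 674 above and 625 below 0, against 355 and 752, and the HD* against LD* genes 107 higher and 74 lower, against 45 and 102. For LD* against controls they were 157 higher and 224 lower, against 40 and 347. The following members changed sign, with the cause not tested. With TMM, the sign turned for BCAN in HD* against controls (0.11), BCAN, HAPLN1 and PTPRZ1 in VHD against HD (0.13, 0.11 and 0.19) and the BCAN slope (0.080). With cohort as a covariate it turned for BCAN (0.013) and NCAN (-0.16) in HD* against controls and for the TNC slope (0.18). Leaving out 1 animal gave ranges across 0 of -0.085 to 0.028 for BCAN and -0.10 to 0.13 for NCAN in HD* against controls, -0.11 to 0.0034 for BCAN, -0.026 to 0.17 for HAPLN1 and -0.43 to 0.15 for HAPLN4 in LD* against controls, and -0.024 to 0.074 for BCAN in HD* against LD*. In VHD against HD the ranges were -0.14 to 0.0097 for BCAN, -0.21 to 0.16 for HAPLN1, -0.25 to 0.20 for PTPRZ1 and -0.016 to 0.66 for TNC, and for slopes -0.11 to 0.023 for BCAN, -0.22 to 0.090 for PTPRZ1 and -0.43 to 0.21 for TNC. Over all members and comparisons, 274 of the other alternative values kept their sign and side of the threshold, 8 reversed and 2 lost a call. With an animal left out, 930 values kept both, 22 reversed, 3 gained a call and 5 lost one. Many of these values could not change, since leaving out an animal outside the compared groups left the estimate as it was. The F values for cohort, also counted, have no sign. The counts are therefore no measure of how stable the results are. No paired analysis was possible because the labels give no replicate numbers and the animals are unrelated. Without read counts per animal, the counting error of low members such as ACAN is unknown.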
